A study of Mus musculus with 8 samples.

Results

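Voltage-gated calcium channels were examined through 10 of their subunit genes, among the 22609 gene symbols counted in back-labelled sensory neurons from the dorsal root ganglia (DRG) of mice. The genes were chosen by name: 8 genes of the pore-forming Cacna1 family (Cacna1a, Cacna1b, Cacna1c, Cacna1d, Cacna1e, Cacna1g, Cacna1h and Cacna1i) and Cacna2d1 and Cacna2d2, which encode alpha2delta subunits. All 10 were listed in every library. To compare the sexes, the study injected the fluorescent lectin WGA-488 into hindpaw skin and thigh muscle of naïve C57BL/6J mice aged 8 to 12 weeks, took lumbar DRG 2 days later and double-sorted the labelled neurons. There were 4 libraries from females, all in estrous, and 4 from males, each from 6 ganglia, and each held a mixture of skin and muscle neurons that cannot be separated. Libraries were made by SMART-seq2, which primes cDNA at the poly(A) tail and amplifies it by PCR.

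A voltage-gated calcium channel opens its pore when the membrane depolarises and lets calcium into the cell. The pore protein decides the family: Cav1 channels carry long-lasting L-type current, Cav2 channels trigger transmitter release at nerve terminals, and Cav3 channels open near rest as low-threshold T-type channels. The alpha2delta and beta subunits help channels reach the membrane, and in sensory neurons alpha2delta-1 is the binding site of the pain drugs gabapentin and pregabalin.

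Promoter sequence is given for 3 genes on which the results turn: the alpha2delta and the pore gene with the highest levels (Cacna2d1 and Cacna1b), and Cacna1i, which had the smallest unadjusted p of the subunit genes between the sexes in edgeR (Cacna2d1 had it in DESeq2 and limma-voom). The RefSeq promoter table of build GRCm38.p6 matched 7 of the 10 genes, and Cacna1a, Cacna1g and Cacna1h were not matched. Each sequence is the 250 bases before the annotated start, 5′ to 3′ on the gene's strand, with CG dinucleotides in capitals. The intervals are chr5:15934441-15934690 (plus strand) for Cacna2d1, chr2:24763153-24763402 (minus strand) for Cacna1b and chr15:80286988-80287237 (plus strand) for Cacna1i.
Cacna2d1: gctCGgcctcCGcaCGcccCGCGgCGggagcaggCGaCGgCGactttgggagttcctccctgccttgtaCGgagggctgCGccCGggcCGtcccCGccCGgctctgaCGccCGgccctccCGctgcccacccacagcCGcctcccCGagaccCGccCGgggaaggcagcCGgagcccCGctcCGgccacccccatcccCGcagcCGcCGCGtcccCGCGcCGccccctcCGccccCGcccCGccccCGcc
Cacna1b: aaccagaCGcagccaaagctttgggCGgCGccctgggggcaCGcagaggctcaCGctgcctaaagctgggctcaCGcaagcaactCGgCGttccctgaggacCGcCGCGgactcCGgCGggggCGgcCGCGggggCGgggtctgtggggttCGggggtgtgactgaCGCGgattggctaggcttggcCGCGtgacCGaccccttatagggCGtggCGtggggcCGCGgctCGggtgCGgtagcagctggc
Cacna1i: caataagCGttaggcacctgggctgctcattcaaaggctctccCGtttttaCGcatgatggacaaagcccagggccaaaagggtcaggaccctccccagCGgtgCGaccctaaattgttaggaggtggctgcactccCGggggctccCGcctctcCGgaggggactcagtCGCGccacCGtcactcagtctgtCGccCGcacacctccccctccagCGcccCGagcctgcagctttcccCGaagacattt

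The Cacna2d1 window held 36 CG dinucleotides, and 2.58% of the 32851 promoters in the table held at least as many in the same length, where the median was 6. Cacna1b held 29 (6.78% of promoters with at least as many) and Cacna1i held 16 (25.4%). On either strand, the letters GGGCGG, which include a CG, were present in the Cacna2d1 and Cacna1b windows and in 32.7% of all promoters, and were not found in the Cacna1i window. TATAAA was in none of these 3 windows and in 12.4% of all promoters. The start used in these neurons was not measured.

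The libraries held between 4.80 and 7.33 M gene reads (M, 1e6 reads), and 3 reads, taken as the floor, were worth 0.409 to 0.625 counts per M gene reads (CPM). Xist had 395 to 764 reads in female libraries and 0 to 6 in male libraries, and Ddx3y 0 and 240 to 309, as labelled. All 15 genes of a sensory neuron list were detected and summed to 25491 to 35936 CPM in females and 26257 to 28786 CPM in males, and all 10 nociceptor markers to 7183 to 9092 and 8570 to 11719 CPM. Tac1, a gene of peptidergic neurons, is in both lists, and without it the first sum was 24787 to 35280 and 25003 to 28120 CPM. Summed satellite glia and Schwann cell markers (15 of 15 detected) ran from 11823 to 15226 CPM in females and from 5612 to 11406 CPM in males. These sums did not overlap, but Apoe alone gave 8054 to 10873 CPM in females and 3068 to 7796 CPM in males, and the other 14 markers summed to 3459 to 4352 and 2544 to 3610 CPM, with overlap. Summed markers of large myelinated fibre neurons (11 of 12 in the files) ran from 1156 to 2534 and from 600 to 1291 CPM. Far lower sums were found for markers of fibroblasts (105 to 158 CPM in females, 46.0 to 89.7 in males), macrophages (7.42 to 20.2 and 3.96 to 9.36), endothelium (4.58 to 19.9 and 5.05 to 8.73) and muscle (4.67 to 5.42 and 1.48 to 3.27, with Myh2 and Tnnt3 at 0). The fibroblast and muscle sums did not overlap between the sexes and were higher in females, while the macrophage and endothelium sums overlapped. Of the 10 muscle markers, 9 had a mean under 1 CPM. Female replicate 4 stood apart by transcript length: across 12368 genes its deviation from the median of the other libraries had a Spearman rho of -0.52 with exon length, against 0.0076 to 0.22 in the other 7 libraries. All of the subunit genes are long, with at least 6.04 kb of exon, while 77.3% of those 12368 genes were shorter than the shortest tested subunit gene, so the sex comparison of each subunit gene is given with and without it. In bulk samples, fewer cells of a type and less RNA per cell cannot be told apart.

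The level of each gene was compared as CPM per kb of its summed exons, so that genes of different length could be set beside each other. Whether reads rise evenly with exon length in these libraries was not tested. Cacna2d1 had the highest level, at 13.5 ± 3.70 CPM per kb (SD, n = 8 libraries), and ranged from 6.75 to 19.4. The N-type pore gene Cacna1b followed at 5.65 ± 1.19 CPM per kb (SD, n = 8), and the T-type pore gene Cacna1h at 3.35 ± 0.676 (SD, n = 8). The gap was 2.38-fold between Cacna2d1 and Cacna1b, 1.69-fold between Cacna1b and Cacna1h and 2.62-fold between Cacna1h and the next gene. Then came 3 genes close to 1 CPM per kb: Cacna2d2 at 1.28 ± 0.348, the L-type pore gene Cacna1c at 1.04 ± 0.302 and the P/Q-type pore gene Cacna1a at 1.00 ± 0.191 (SD, n = 8 for each). The R-type pore gene Cacna1e reached 0.555 ± 0.158 CPM per kb, Cacna1i 0.303 ± 0.126 and Cacna1d 0.286 ± 0.0890 (SD, n = 8 for each).

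In this order, the ranges over the 8 libraries did not overlap only between Cacna2d1 and Cacna1b and between Cacna1d and Cacna1g. Without female replicate 4, the ranges of Cacna1b and Cacna1h, and of Cacna1h and Cacna2d2, did not overlap either. Within single libraries the order was steadier at the top than lower down: Cacna2d1 was above Cacna1b, Cacna1b above Cacna1h, Cacna1h above Cacna2d2 and Cacna1a above Cacna1e in 8 of 8 libraries, whereas Cacna2d2 was above Cacna1a in 7, Cacna2d2 above Cacna1c in 6, Cacna1c above Cacna1a in 5 and Cacna1i above Cacna1d in 4. Over the 8 libraries the ranges of Cacna2d2, Cacna1c and Cacna1a overlapped, as did those of Cacna1i and Cacna1d, although in the males alone Cacna2d2 (1.23 to 1.42 CPM per kb) and Cacna1a (0.920 to 1.03 CPM per kb) did not overlap. With the longest transcript as the length, Cacna1a moved from the sixth to the fourth place, at 1.44 CPM per kb. Without female replicate 2 or female replicate 4, Cacna1d stood above Cacna1i. Among 16821 genes with reads and a length, the level per kb of Cacna2d1 was at the percentile 75.2, Cacna1b at 60.2 and Cacna1h at 51.3, and those of the other tested subunit genes were between 21.8 and 36.6.

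**Figure D1:**
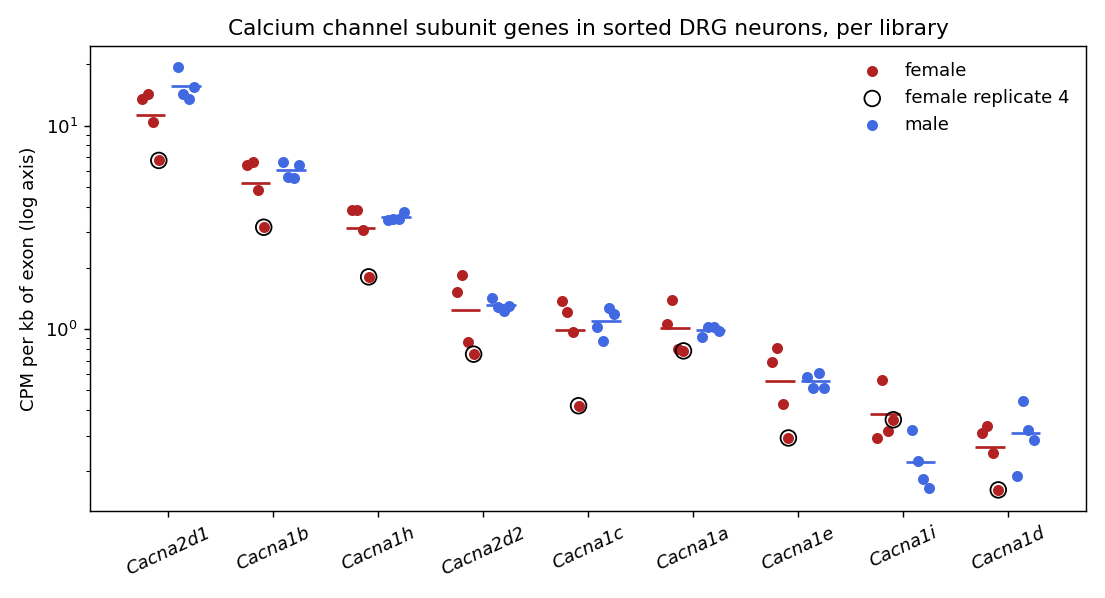
Level of each of 9 subunit genes in CPM per kb of exon (log axis), one point per library, females in red and males in blue, with the mean of each sex as a line and female replicate 4 ringed. Cacna2d1 lies between 6.75 and 19.4 CPM per kb, and female replicate 4 is the lowest point of every gene except Cacna1i. Cacna1g, with 1 read in all, is not drawn.

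The makeup of the pore genes was much the same in all libraries. Of the summed CPM per kb of the 8 pore genes, Cav2 genes (Cacna1a, Cacna1b, Cacna1e) took 59.1% ± 1.69 (SD, n = 8), Cav3 genes (Cacna1g, Cacna1h, Cacna1i) 30.1% ± 1.01 and the Cav1 genes Cacna1c and Cacna1d 10.8% ± 1.45. The Cav2 share was lowest in female replicate 3 at 56.7% and highest in male replicate 1 at 62.0%. Cav1 ranged from 8.33% in female replicate 4 to 12.8% in male replicate 3. While the summed level of the pore genes in female replicate 4 was 6.99 CPM per kb, against 10.7 to 14.9 in the other libraries, its Cav2 share of 60.7% and its Cav3 share of 31.0% lay inside the range of the other libraries.

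One gene led each family. Cacna1b made up 78.3% ± 2.54 of the Cav2 level (SD, n = 8), Cacna1c 77.9% ± 5.84 of the Cav1 level and Cacna1h 91.3% ± 4.21 of the Cav3 level. The Cacna1h share of Cav3 was 88.5% ± 4.19 in females and 94.0% ± 1.85 in males (SD, n = 4 for each), with overlapping ranges. The Cacna2d1 share of the summed alpha2delta level, which includes Cacna2d3 and Cacna2d4, was 67.2% ± 7.65 (SD, n = 8). It was 52.0% in female replicate 4, below the 60.9% to 76.9% of the other libraries. In that library Cacna2d1, with 8.39 kb of exon, was at 56.6 CPM and Cacna2d3, with 3.69 kb, at 20.2 CPM. The part of exon length in this lower share was not tested.

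**Figure D2:**
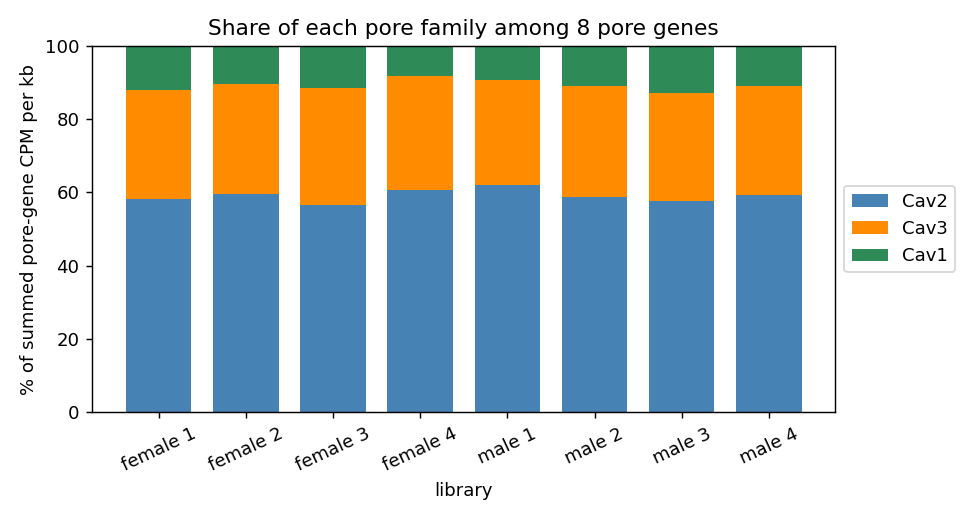
Share of the Cav1, Cav2 and Cav3 pore genes in the summed CPM per kb of 8 pore genes, as a stacked bar per library. Cav2 takes 56.7% to 62.0% in all 8 libraries, Cav3 28.7% to 31.9% and Cav1 8.33% to 12.8%.

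Between the sexes, none of the 9 tested subunit genes passed an adjusted p of 0.05, by edgeR's quasi-likelihood test, by DESeq2 or by limma-voom. Cacna1g did not pass the expression filter of edgeR and limma-voom, while DESeq2 took it in. Over all 12518 tested genes 11 passed, which is 0.0879%. Sex-linked genes were kept in that fit, whereas the 9 subunit genes are all autosomal. At an unadjusted p under 0.05, 2 of the 9 were found by edgeR (7.11% of all genes), against 1 by DESeq2 and 2 by limma-voom: Cacna1i, at 1.67-fold in females over males (4.44% of all genes in that direction), and Cacna2d1, at 1.42-fold in males over females (2.67%). None of the 9 genes had levels that did not overlap between the sexes, compared with 5.52% of all genes. Since nothing in the labels ties libraries to litters or days, p-values measure the spread between these samples. All fold changes that follow are log2, female over male, from the edgeR fit, with the 95% interval.

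Cacna2d1, on chr5:15440509-15880329 (plus strand, build NCBIM37, also called mm9), encodes alpha2delta-1. Its level was 113, 120, 87.1 and 56.6 CPM in female replicates 1 to 4 and 163, 121, 114 and 130 CPM in male replicates 1 to 4. The highest female library was above the lowest male library, so the sexes overlapped, and male replicate 1 and female replicate 4 were the ends of the range. The mean was 94.2 ± 28.8 CPM in females and 132 ± 21.7 CPM in males (SD, n = 4 for each). The log2 fold change was -0.50 (95% interval -0.99 to -0.01), with an unadjusted p of 0.0449 and a Benjamini-Hochberg adjusted p of 0.696 in edgeR. Without female replicate 4 it was -0.32 (unadjusted p 0.0462, adjusted p 0.428, edgeR), and without male replicate 1 it was -0.38 (unadjusted p 0.135, edgeR). In the fit without female replicate 4, 11.4% of all genes had an unadjusted p under 0.05. With the glial marker score (the mean log2(CPM + 1) of the glial markers) in the edgeR model, the Cacna2d1 value was -0.29 at an unadjusted p of 0.356. Summed glial markers did not overlap between the sexes, so fits with this score may not separate it from sex.

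Cacna2d2, on chr9:107301943-107431677 (plus strand), encodes the related subunit alpha2delta-2. It stood at 9.21, 11.1, 5.21 and 4.55 CPM in female replicates 1 to 4 and at 8.60, 7.72, 7.43 and 7.84 CPM in male replicates 1 to 4. Female libraries lay on both sides of the male libraries, and the log2 fold change was -0.08 (95% interval -0.70 to 0.53) and 0.10 without female replicate 4. It was counted in 25 to 67 reads per library.

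Cacna1b, on chr2:24459407-24618672 (minus strand), encodes the N-type channel Cav2.2, which admits the calcium for transmitter release from sensory terminals in the spinal cord. Its level was 63.4, 66.1, 47.9 and 31.5 CPM in the females and 65.9, 55.6, 55.0 and 64.0 CPM in the males. Only female replicates 3 and 4 were below all male libraries. The log2 fold change was -0.22 (95% interval -0.69 to 0.25) in 8 libraries and -0.04 without female replicate 4.

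Cacna1a, on chr8:86912339-87164145 (plus strand), encodes the P/Q-type channel Cav2.1. It had 12.1, 16.0, 9.17 and 8.93 CPM in the females and 10.5, 11.7, 11.7 and 11.2 CPM in the males, so that the males lay inside the range of the females. Its log2 fold change was 0.02 (95% interval -0.44 to 0.47), which was 0.13 without female replicate 4 and turned to -0.18 without female replicate 2. Cacna1e, on chr1:156239649-156573049 (minus strand), encodes the R-type channel Cav2.3, and had 8.80, 10.2, 5.42 and 3.71 CPM in the females and 7.37, 6.54, 7.76 and 6.51 CPM in the males. Here too the males lay inside the female range, with a log2 fold change of -0.01 (95% interval -0.66 to 0.64), which was 0.21 without female replicate 4.

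Cacna1c, on chr6:118542314-119146249 (minus strand), encodes the L-type channel Cav1.2. Its level was 12.1, 10.8, 8.54 and 3.71 CPM in the females and 9.0, 7.72, 11.2 and 10.5 CPM in the males. Female replicate 4, at 35.4% of the mean of the other females, was the only female library below all males. The log2 fold change of -0.14 (95% interval -0.83 to 0.55) was 0.12 without it. Cacna1d, on chr14:30853135-31304342 (minus strand), encodes the L-type channel Cav1.3, which opens at more negative voltages than Cav1.2. It was counted in 9 to 28 reads per library, or 2.89, 3.12, 2.29 and 1.52 CPM in the females and 1.77, 4.16, 2.97 and 2.66 CPM in the males. The sexes overlapped, with a log2 fold change of -0.24 (95% interval -0.99 to 0.51), which was -0.06 without female replicate 4, -0.41 without male replicate 1, -0.01 without male replicate 2 and -0.67 with the glial marker score in the model (unadjusted p 0.140, edgeR).

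Cacna1h, on chr17:25511230-25570728 (minus strand), encodes the T-type channel Cav3.2, a regulator of excitability in nociceptors and D-hair mechanoreceptors. Its level was 37.8, 37.8, 30.2 and 17.7 CPM in the females and 33.7, 34.0, 33.8 and 37.0 CPM in the males. Females 1 and 2 were above every male and females 3 and 4 below. The log2 fold change was -0.18 (95% interval -0.66 to 0.30), and 0.01 without female replicate 4. Markers of D-hair and C-fibre low-threshold mechanoreceptors (7 of 7 detected) summed to 607 to 750 CPM in females and 566 to 756 CPM in males, so they overlapped as well.

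Cacna1i, on chr15:80117668-80228709 (plus strand), encodes the T-type channel Cav3.3. It was counted in 21, 32, 15 and 21 reads in the females and in 23, 15, 11 and 11 reads in the males. That gave 2.89, 5.55, 3.12 and 3.54 CPM against 3.14, 2.23, 1.82 and 1.63 CPM. Male replicate 1 lay above female replicates 1 and 3, and female replicate 2 was the highest library. The mean was 3.78 ± 1.22 CPM in females and 2.2 ± 0.672 CPM in males (SD, n = 4 for each), and the log2 fold change was 0.74 (95% interval 0.03 to 1.45), with an unadjusted p of 0.0427 and an adjusted p of 0.696 in edgeR. Without female replicate 4 it was 0.77 (unadjusted p 0.0553, edgeR), without female replicate 2 it was 0.49 (unadjusted p 0.160, edgeR), and DESeq2 gave an unadjusted p of 0.0597. With the glial marker score in the edgeR model it was 1.02 (unadjusted p 0.0515), and the part of large myelinated fibre neurons, whose markers reached higher sums in females, was not tested.

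Cacna1g, on chr11:94269705-94335414 (minus strand), encodes the T-type channel Cav3.1, and was at 0 reads in 7 libraries and at 1 read in female replicate 2. This is below the floor of 3 reads, which corresponds to 0.0408 to 0.0623 CPM per kb for this gene. The floor covers counting error only, since PCR copies were counted as reads.

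**Figure D3:**
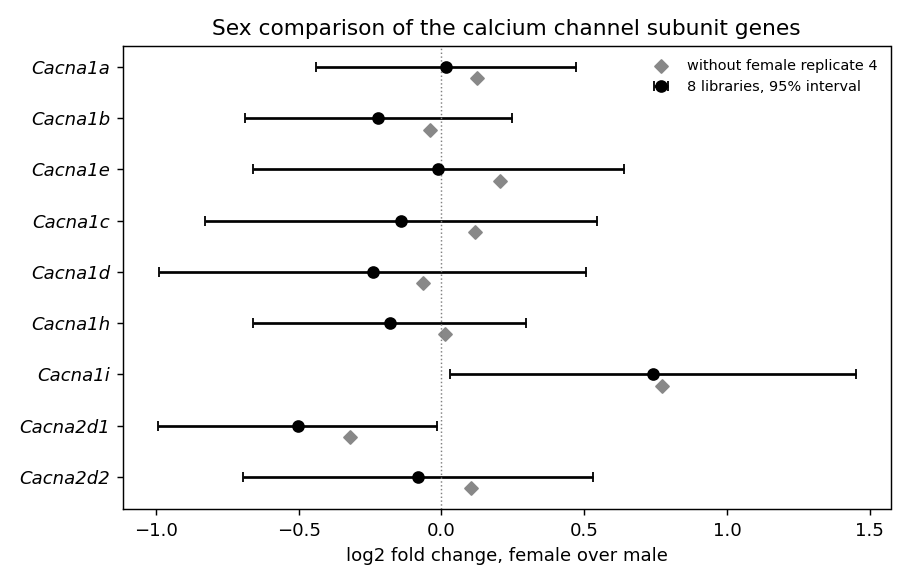
Log2 fold change, female over male, of the 9 tested subunit genes, with 95% intervals from the edgeR fit of 8 libraries (black) and the value without female replicate 4 (grey diamonds). The intervals of Cacna1i (0.03 to 1.45) and Cacna2d1 (-0.99 to -0.01) leave out 0, before adjustment for 12518 genes.

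Over the 9 tested genes, 7 log2 fold changes were below 0, against 49.3% of all genes, and their median was -0.14, against 0.0034 over all genes. Without female replicate 4 the median was 0.10 (0.0082 over all genes) and 6 of the 9 were above 0. With an offset for exon length in all 8 libraries it was -0.09 (0.015 over all genes). The sign of the median therefore changed with 1 library. Of the single genes, Cacna1c, Cacna1e, Cacna1h and Cacna2d2 changed sign without it and the other 5 kept theirs.

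Female replicate 4 was the lowest of the 8 libraries for 8 of the 9 tested genes, Cacna1i being the exception. Its level ranged from 35.4% of the mean of the other females for Cacna1c to 71.9% for Cacna1a among those 8, and was 91.8% for Cacna1i. The median deviation of the 9 genes from the median of the other libraries was -0.83 on the log2 scale. Among the 2808 genes at least as long as Cacna2d2, the shortest of the 9, it was -0.54, and among the 1237 shortest genes it was 0.32. In female replicate 3 the median deviation of the 9 genes was -0.32, with 8 of 9 below 0, although the 2808 long genes were at -0.05 there. In female replicates 1 and 2 it was 0.16 and 0.25, with 2 and 0 of 9 below 0, and the 2808 long genes were at 0.12 and 0.08. In the males the median deviation of the 9 genes lay between -0.02 and 0.09. With the offset for exon length, Cacna2d1 was at -0.43 (unadjusted p 0.0124, adjusted p 0.457, edgeR) and Cacna1i at 0.85 (unadjusted p 0.0266, adjusted p 0.487, edgeR).

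**Figure D4:**
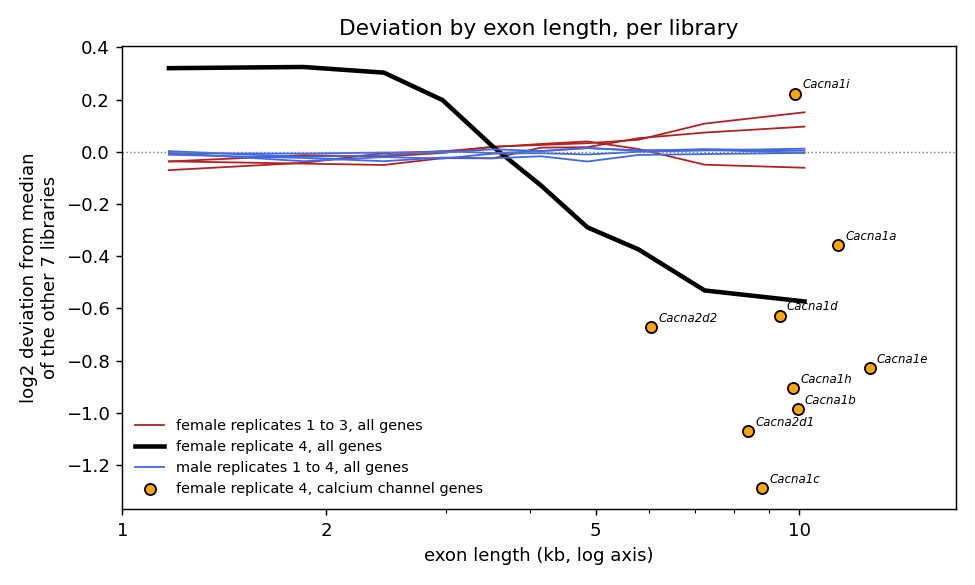
Median log2 deviation from the median of the other 7 libraries, for 12368 genes in 10 bins of exon length (kb, log axis), one line per library, with the 9 subunit genes of female replicate 4 as points. The line of female replicate 4 runs from 0.32 in the shortest bin to -0.57 in the longest, the other libraries stay near 0, and 8 of the 9 points are below 0.

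The genes whose log2(CPM + 1) followed a subunit gene most closely over the 8 libraries were sought among 12517 tested genes. For Cacna2d1 these were Rspo2 (Pearson r 0.995, Spearman rho 0.952), Creb1 (0.989 and 0.857) and A830018L16Rik (0.989 and 0.976). For Cacna1i they were Adrbk1 (0.963 and 0.929), Tlx3 (0.955 and 0.952) and Hnrnpl (0.948 and 0.905). The libraries share their sex and length trends across genes, and the top values of so many genes are high by selection.

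The partner subunits were read from a list of 16 further channel genes. Of these, Cacng6 had no read, 7 passed the expression filter and 0 passed an adjusted p of 0.05 in edgeR, DESeq2 or limma-voom. At an unadjusted p under 0.05 in edgeR, 1 was higher in females (4.44% of all genes) and 0 were lower. The beta subunit gene Cacnb3 was far above the pore genes at 139 ± 17.4 CPM per kb (SD, n = 8), against 12.2 ± 2.44 CPM per kb for the 8 pore genes summed. The pore genes have 8.82 to 12.7 kb of exon and Cacnb3 has 3.12 kb, and the part of length in this gap was not tested. Cacnb3 took 86.7% ± 1.45 of the beta level. Cacnb4 was at 12.7 ± 0.724 and Cacnb1 at 8.44 ± 1.62 CPM per kb, while Cacnb2 had 13 reads over all libraries. The log2 fold changes of Cacnb3, Cacnb4 and Cacnb1 were -0.11, -0.11 and -0.22 (95% intervals -0.39 to 0.17, -0.33 to 0.11 and -0.63 to 0.19), and -0.20, -0.11 and -0.10 without female replicate 4. Cacnb3 turned to 0.07 with the glial marker score in the model, and Cacnb4 to 0.03 with the offset for exon length. In female replicate 4, Cacnb3, whose exons measure 3.12 kb, was at 503 CPM, the second highest of the 8 libraries. Cacnb4, whose exons measure 8.94 kb, was at 110 CPM there, inside the range of 104 to 119 CPM of the other females.

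Cacna2d3, the third alpha2delta gene, reached 4.93 ± 0.651 CPM per kb (SD, n = 8), between Cacna2d1 and Cacna2d2, with a log2 fold change of -0.01 (95% interval -0.38 to 0.37), which was 0.0098 with the offset for exon length. Cacna2d4 had 5 reads over all libraries, and the pore genes Cacna1f and Cacna1s had 8 and 3. Of the gamma genes, whose proteins mostly act on AMPA receptors, Cacng5 was at 7.10 ± 2.03, Cacng2 at 2.0 ± 0.355 and Cacng3 at 1.67 ± 0.702 CPM per kb (SD, n = 8 for each). Cacng3 was the gene with the unadjusted call. It stood at 4.40, 2.78, 2.29 and 3.54 CPM in the females and 2.32, 2.53, 1.49 and 1.04 CPM in the males, with overlap. Its log2 fold change was 0.80 (95% interval 0.04 to 1.56, unadjusted p 0.0402, adjusted p 0.696, edgeR), and the unadjusted p was 0.0694 without female replicate 4.

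**Figure D5:**
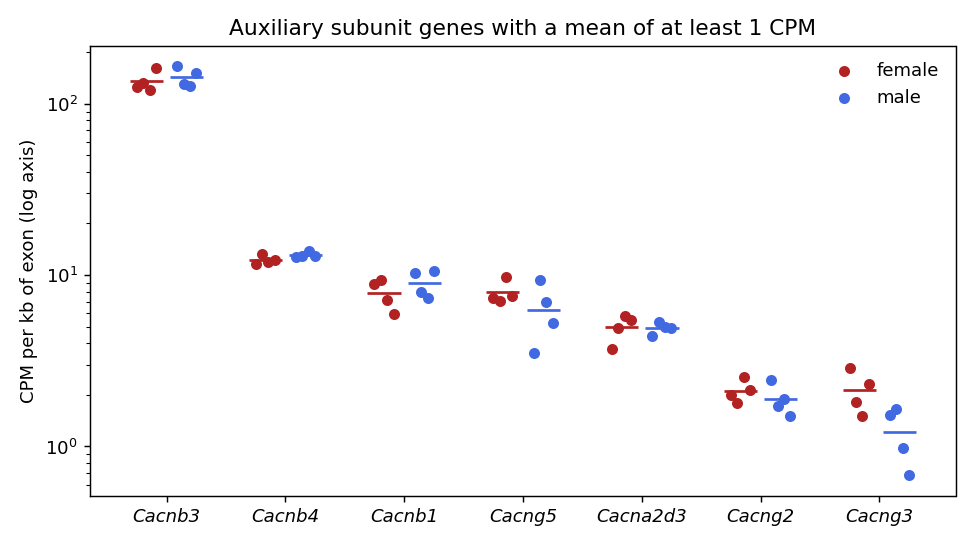
Level of the 7 partner subunit genes with a mean of at least 1 CPM, in CPM per kb of exon (log axis), one point per library and the mean of each sex as a line. Cacnb3 lies near 139 CPM per kb, the highest of the 7, and the points of females and males overlap for every gene.

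Among 30 regulators and ligands of the channels, 25 were tested, 0 passed the adjusted threshold in edgeR, DESeq2 or limma-voom, and 1 had an unadjusted edgeR p under 0.05 (7.11% of all genes, and 4.44% higher in females). Their median log2 fold change was 0.01, and 11 of the 25 were below 0 (49.3% of all genes). The single gene was Rims1, which encodes an active-zone protein that tethers Cav2 channels to release sites. It stood at 12.8, 14.2, 16.9 and 10.1 CPM in the females and 10.1, 9.95, 9.91 and 9.61 CPM in the males. All female libraries were above all male libraries, the lowest female by less than 0.1 CPM. The log2 fold change of Rims1 was 0.42 (95% interval 0.01 to 0.83, unadjusted p 0.0435, adjusted p 0.696, edgeR). For Rims1 the unadjusted p was under 0.05 in 1 of 8 fits with a library left out. That was the fit without female replicate 4 (0.00622, edgeR), where 11.4% of all genes had an unadjusted p under 0.05. The Rims1 value was 0.52 with the offset for exon length (unadjusted p 0.00697, edgeR). With the glial marker score in the model it was 0.42 (unadjusted p 0.143, edgeR). Levels did not overlap for 5.52% of all genes, and the regulator list held another such gene in the other direction. This was Camk2d, a calcium/calmodulin kinase gene named here after its values were seen, at 364, 373, 387 and 143 CPM in the females against 406, 395, 396 and 392 CPM in the males (log2 fold change -0.34, unadjusted p 0.212, edgeR, and -0.10 without female replicate 4). Of 25 genes of calcium stores, pumps and buffers, 24 were in the files used here (not Mcu) and 20 were tested. None of them had an unadjusted edgeR p under 0.05 (7.11% of all genes), 0 passed the adjusted threshold in edgeR, DESeq2 or limma-voom, and the median was 0.10, with 7 of 20 below 0 (49.3% of all genes).

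Parts of some exons are shared with another gene, and SMART-seq2 reads do not mark the strand, so those reads cannot be assigned. The shared part was 5.54% of exon bases for Cacna1d (Chdh), 3.81% for Cacna1a (Gm16183), 1.61% for Cacna1h (Tpsg1) and 1.36% for Cacna2d2 (Gm17141), and, among the partners, 16.0% for Cacnb4 (A430018G15Rik), 5.86% for Cacng2 and 1.77% for Cacnb1. The other 6 subunit genes shared none.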

How the data were processed

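Sorted neurons from 4 females and 4 males were sequenced as 50 bp single reads. Per the labels and methods, the authors aligned reads to mm9 with TopHat2 and counted them with HTSeq; the deposited values are raw read counts per gene without normalization. The strand setting and versions are not given in the sources used here. After the 5 summary rows were dropped, CPM was computed, and CPM per kb from GENCODE M1 exons (21627 symbols matched, 95.7%). Counts were fitted with edgeR 4.0.16 (R 4.3.3), TMM factors, the default expression filter and sex alone, with Benjamini-Hochberg adjustment over 12518 genes, and the code was tested on simulated data. DESeq2 1.42.0, limma 3.58.1, other scalings, filters, thinning, a length offset, a glial covariate, a replicate block and leaving out libraries were alternatives. Members and lists were chosen with earlier results of these data known. Named by rule were all members, auxiliary genes with a mean of at least 1 CPM, other list genes with an unadjusted p under 0.05, the 3 genes most alike to 2 members, and Xist and Ddx3y; outside it, genes near 0 reads, single markers, genes sharing exons, Mcu and Camk2d were named after their values were seen.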

Additional observations from a re-analysis of the deposited data

Results flagged for a closer look

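Cacna1h in the male libraries had 1 sample far from the others. Male replicate 4 stood at 5.25 on the log2(CPM + 1) scale, while the other 3 males lay between 5.12 and 5.13, so its gap to the nearest library was 0.9 of the range of the group. The reads were 247, 229, 205 and 250 in male replicates 1 to 4. Of 32 groups of libraries tested this way, 1 stood out, and chance gives about 1.6.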

How the results depend on the processing

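No subunit gene passed the adjusted threshold under any of the 18 alternatives, where the smallest adjusted p was 0.428. Of 160 values of single subunit genes, 143 kept their direction and 17 changed it. All genes past the threshold numbered 11, against 44 with DESeq2, 5 with the glial score as a covariate and 6 with the replicate block, and 7 (without male replicate 4) to 84 (without female replicate 1) with a library left out. Cacna1a turned to -0.0173 with limma-voom, -0.10 after thinning, -0.13 with the glial score and -0.0162 with the replicate block, and ran from -0.18 to 0.13 with a library left out. Cacna1e turned to 0.0097 with library size alone and 0.0365 with the length offset, and ran from -0.24 to 0.21 with a library left out. On the same terms Cacna1c ran from -0.34 to 0.12, Cacna1h from -0.30 to 0.0142 and Cacna2d2 from -0.33 to 0.10. An unadjusted p under 0.05 was kept with a library left out in 4 of 8 fits for Cacna2d1 and 3 of 8 for Cacna1i, and by neither after thinning, where Cacna2d1 was at -0.48 (p 0.0511, edgeR) and Cacna1i at 0.54 (p 0.175, edgeR). The replicate block ended that of Cacna1i (0.73, p 0.0657, edgeR). The median level of the 10 genes was 1.02 CPM per kb, and 1.27 with the longest transcript as the length. The longest transcript is never longer than the summed exons, so this rise follows from the division. Why the fold changes moved between settings was not tested. Libraries with the same number did not deviate together (correlations from -0.11 to 0.14, and 3 of 8 libraries correlated best with their own number), so the block is only an alternative. The reads of Cacna1d, Cacna1i and Cacna1g limit what can be seen of them.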
